A study of Mus musculus with 6 samples.

Results

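Genes that carry, bind or store metal ions were followed in cultured mouse vascular smooth muscle cells given the cytokine TWEAK. The group was defined by gene symbol: every zinc exporter of the Slc30 family, zinc importer of the Slc39 family, NRAMP metal carrier of the Slc11 family, copper carrier of the Slc31 family and magnesium carrier of the Slc41 family in the deposited table, with Slc40a1, Atp7a, Mt1, Mt2, Mtf1, Fth1, Ftl1, Tfrc, Steap3 and Ireb2. It held 35 of the 14927 genes listed. There were 12 zinc importers, 6 zinc exporters, 5 genes of iron uptake, storage and control, 3 copper carriers, 3 magnesium carriers, 3 genes of the metallothionein system, 2 NRAMP carriers and ferroportin. The cells came from the thoracic aortas of wild type C57BL/6 mice, were used between passages 3 and 7 per the sample labels, and carried no transgene that the labels name. In the TWEAK group, 24 h in medium with 0.5% fetal bovine serum was followed by 24 h with 100 ng/mL recombinant TWEAK and 0.5% serum. The vehicle group had the same serum deprivation and 24 h with vehicle. Each group had 3 libraries of total RNA, numbered by experiment from 1 to 3 in both groups, and each library held between 62632273 and 82118717 reads on the listed genes. The labels do not say whether the experiments came from separate animals or cultures. The main test compared TWEAK with vehicle within experiments. Its p-values rest on how much that difference varied from experiment to experiment, in the gene itself and, through a moderated variance, in other genes of similar level. This variation may be technical.

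Metal ions are handled by carriers in the plasma membrane and organelles, by proteins that bind them in the cytosol, and by regulators that read their level. Metallothioneins bind zinc and copper, and their genes are switched on by the zinc-sensing factor MTF1 through metal-responsive elements and also by glucocorticoids and inflammatory cytokines. Iron enters the cell as transferrin through the transferrin receptor, is reduced and released from endosomes, is stored in ferritin and leaves through ferroportin. Iron regulatory proteins bind a hairpin called the iron-responsive element: bound in the 5′ untranslated region it blocks translation, and bound in the 3′ untranslated region it protects the message from decay. TWEAK itself is a secreted or membrane-bound relative of tumour necrosis factor that acts through the receptor Fn14.

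The iron-responsive elements of 4 members are shown because these genes are textbook targets of the iron regulatory proteins. A script searched the untranslated regions of GENCODE M21 transcripts on GRCm38 on the transcribed strand for the loop letters CAGTGN closed by 5 paired bases, with an unpaired C below them and at least 4 of 5 pairs below that. It found 1 element in the 5′ untranslated region of Fth1, Ftl1 and Slc40a1 and 4 elements in the 3′ untranslated region of Tfrc. Among all listed genes 4 of 13491 with a 5′ untranslated region held such an element (0.0296%), as did 11 of 13861 with a 3′ untranslated region (0.0794%). No other member, Slc11a2 included, had a match under this rule. Hairpins with other pairing were not searched for, so a member without a match may still carry an element. Capitals mark the 6 bases of the loop in each 30-base site.
Fth1, chr19:9982731-9982760, plus strand: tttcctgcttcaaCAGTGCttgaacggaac
Ftl1, chr7:45459779-45459808, minus strand: tgtcttgcttcaaCAGTGTttgaacggaac
Slc40a1, chr1:45925465-45925494, minus strand: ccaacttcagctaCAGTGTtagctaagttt
Tfrc, chr16:32631218-32631247, plus strand: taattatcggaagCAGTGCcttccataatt
Tfrc, chr16:32631597-32631626, plus strand: acattatcgggagCAGTGTcttccataatg
Tfrc, chr16:32631662-32631691, plus strand: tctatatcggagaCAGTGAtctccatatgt
Tfrc, chr16:32631709-32631738, plus strand: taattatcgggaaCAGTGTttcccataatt

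The sequences before the starts of Mt2 and Mt1 are shown because these neighbouring genes differed in their values. Each is the 250 bases before the start that RefSeq gives on GRCm38.p6, on the plus strand of chromosome 8. Which starts these cells used was not examined, so the stretches may not hold the promoters in use. Capitals mark matches to the core of the metal-responsive element, searched on both strands as TGCACNC or TGCGCNC. There were 3 matches before Mt2 and 1 before Mt1. Bases beyond these windows were not searched for these genes. The match before Mt1 lay near the end of its window, so the counts depend on where the start is placed. They do not show that Mt1 holds fewer elements than Mt2. Over 32851 such windows of all RefSeq genes, 21.4% held at least 1 match and 1.26% held 3 or more. A match is a description of these letters and not a measured binding site.
Mt2, chr8:94172368-94172617: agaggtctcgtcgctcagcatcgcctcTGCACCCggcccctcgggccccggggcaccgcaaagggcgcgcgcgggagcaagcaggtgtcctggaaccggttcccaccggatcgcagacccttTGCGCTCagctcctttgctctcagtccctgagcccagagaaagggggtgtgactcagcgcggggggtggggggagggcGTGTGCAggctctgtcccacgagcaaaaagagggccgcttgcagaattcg
Mt1, chr8:94178839-94179088: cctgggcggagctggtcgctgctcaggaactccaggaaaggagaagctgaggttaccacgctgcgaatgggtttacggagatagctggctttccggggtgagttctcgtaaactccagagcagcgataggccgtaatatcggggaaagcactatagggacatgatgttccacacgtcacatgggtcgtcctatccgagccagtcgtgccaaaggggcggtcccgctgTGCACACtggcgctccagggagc

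A minority of the metal genes differed between TWEAK and vehicle, in both directions. In a limma fit on log2(normalized count + 1) with the experiment number as a block, 7 of the 35 members passed a Benjamini-Hochberg adjusted p under 0.05 over all genes, which is 20.0% of them against 13.7% of all genes. Mt2, Slc11a2, Tfrc and Ireb2 rose (11.4% of members, against 8.11% of all genes), while Slc41a3, Ftl1 and Slc11a1 fell (8.57%, against 5.55%). The median log2 fold change was -0.01 over the members and 0.02 over all genes. A comparison by experiment gave the same mixed picture, with 10 members higher in all 3 experiments, 11 lower in all 3 and 14 of mixed direction. Over all genes 55.2% kept 1 direction in the 3 experiments. Without the block limma called 0 members and 3 genes in all (0.0201%), while 2 members, Slc11a2 and Slc41a3, had an unadjusted p under 0.05 (9.91% of all genes). Without either experiment 1 or experiment 3 the blocked fit called 1 member, Mt2, and without experiment 2 it called 13, the 7 and Mt1, Slc30a5, Slc30a9, Slc31a2, Slc39a10 and Slc39a13. Counts over all 14927 genes moved the same way, from 2039 to 695 without experiment 1, 666 without experiment 3 and 3902 without experiment 2.

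**Figure D1:**
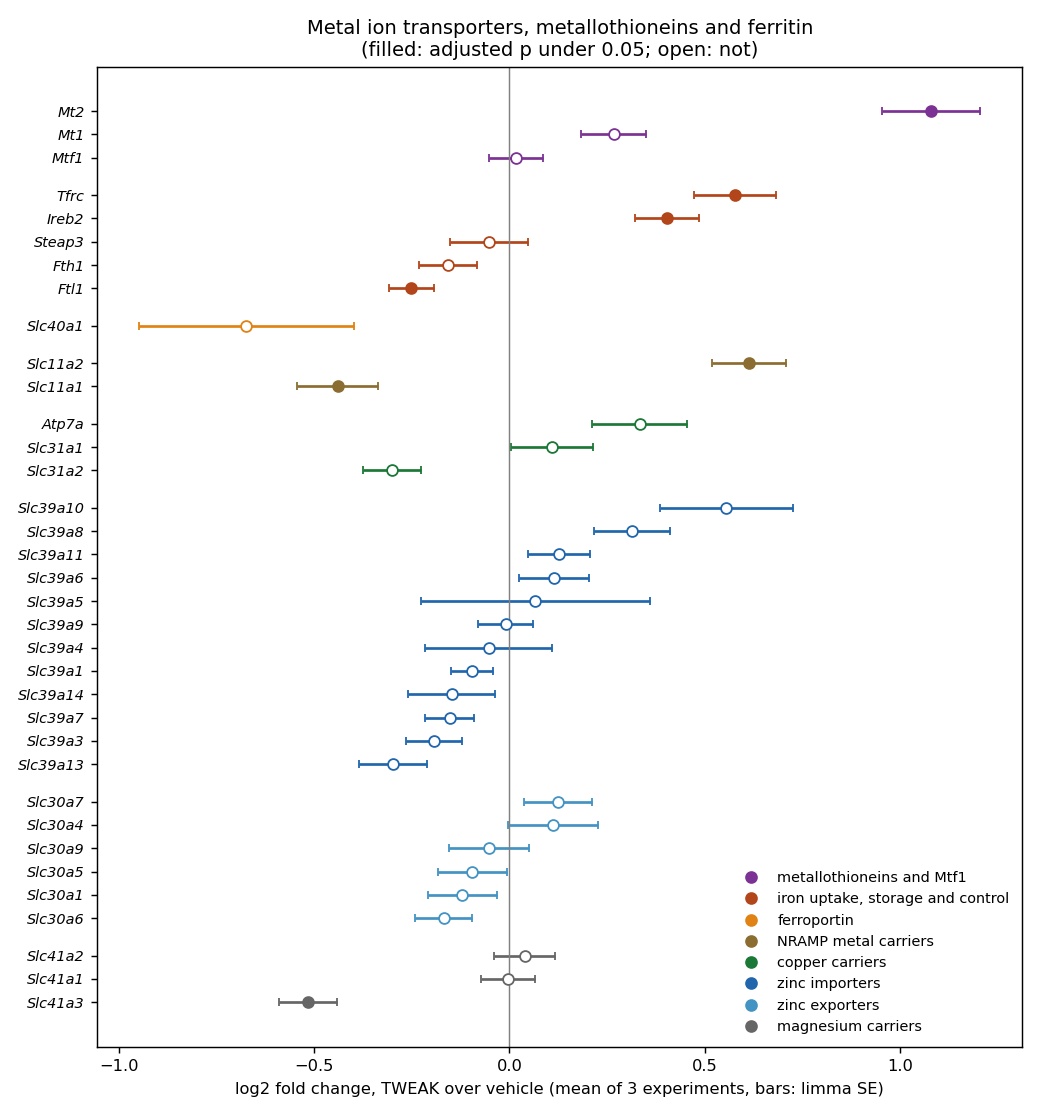
Log2 fold change of each of the 35 members, TWEAK over vehicle, from the blocked limma fit (bars: SE), grouped by role; filled points have an adjusted p under 0.05. The 7 filled points run from 1.08 for Mt2 to -0.52 for Slc41a3, and all zinc importers and exporters are open.

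Mt2, which encodes a metallothionein that binds zinc and copper, had the largest log2 fold change among the members. It had 633, 1905 and 1346 normalized counts in the TWEAK libraries of experiments 1, 2 and 3, against 371, 797 and 581 in the vehicle libraries. Every TWEAK library was above the vehicle library of its experiment, but the TWEAK library of experiment 1 lay below the vehicle library of experiment 2, so the groups overlapped. The fitted difference was 1.08 on the log2 scale (SE 0.13, limma adjusted p = 0.00751), a 2.11-fold higher level. The call held without each experiment in turn and was lost only without the block (adjusted p = 0.575; range over 12 alternatives 1.3e-10 to 0.575).

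Mt1, the neighbouring metallothionein gene, had 2065, 3870 and 3043 normalized counts with TWEAK, against 1615, 3047 and 2840 with vehicle. It was higher with TWEAK in each experiment, with overlapping groups, and its log2 fold change of 0.27 (SE 0.08) did not pass the test (limma adjusted p = 0.0976); it passed without experiment 2 (0.0471; range over 12 alternatives 0.0182 to 0.997). The ratio of Mt2 to Mt1 counts, in which the lengths of both genes are left as they are, was 0.307, 0.492 and 0.442 with TWEAK, against 0.230, 0.262 and 0.204 with vehicle. These ratios did not overlap between the groups. Their mean log2 difference within experiments was 0.81, with a two-sided exact permutation p of 0.1 and an exact sign-flip p of 0.25, the smallest that 3 against 3 libraries and 3 pairs allow, and 0.35 adjusted over 7 single values. Mtf1, which encodes the zinc-sensing factor, had 2212, 2109 and 2402 normalized counts with TWEAK and 2242, 2039 and 2368 with vehicle. Its level was nearly the same in all libraries, and its log2 fold change of 0.02 (SE 0.07) did not pass (limma adjusted p = 0.889) and turned negative under upper quartile scaling and cyclic loess. How the authors counted reads is not stated in the labels or the table, so reads shared by Mt1 and Mt2, which are similar in sequence, are uncertain.

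**Figure D2:**
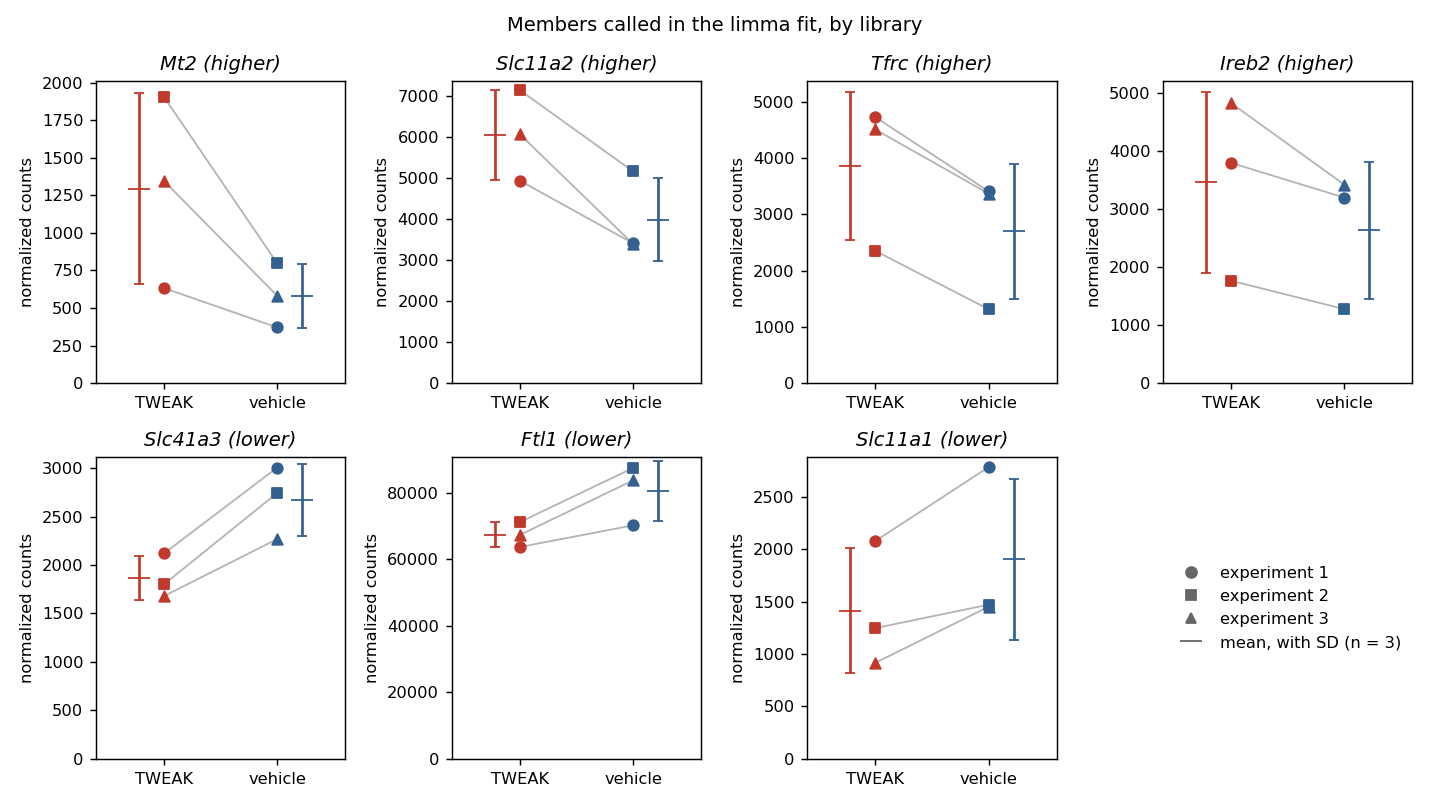
Normalized counts of the 7 called members in each library, TWEAK left and vehicle right, joined within experiments 1 to 3; side bars are the mean with its SD (n = 3). Mt2, Slc11a2, Tfrc and Ireb2 are higher with TWEAK in every experiment, and Slc41a3, Ftl1 and Slc11a1 are lower in every experiment, with the 3 Slc41a3 libraries of TWEAK, 1679 to 2119, all below those of vehicle, 2268 to 3006.

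Among the genes of iron uptake and control, Tfrc and Ireb2 rose and Steap3 was not called. Tfrc, the transferrin receptor, had 4726, 2350 and 4507 normalized counts with TWEAK, against 3407, 1313 and 3366 with vehicle. Both libraries of experiment 2 were lowest in their group, so the groups overlapped, and TWEAK was above vehicle within each experiment. The fitted difference was 0.58 on the log2 scale (SE 0.10, limma adjusted p = 0.0257). Without experiment 1 it was 0.63 (adjusted p = 0.103) and without experiment 3 it was 0.66 (0.0698), within a range over 12 alternatives of 4.18e-05 to 0.895. Ireb2, which encodes iron regulatory protein 2, had 3791, 1764 and 4820 normalized counts with TWEAK, against 3194, 1275 and 3416 with vehicle. It was also lowest in experiment 2, with overlapping groups, and higher with TWEAK in each experiment, with a log2 fold change of 0.40 (SE 0.08, limma adjusted p = 0.0321). Without experiment 1 its adjusted p was 0.0753 and without experiment 3 it was 0.247 (range over 12 alternatives 0.000845 to 0.999). Steap3, the ferrireductase of endosomes, had a log2 fold change of -0.05 (SE 0.10, adjusted p = 0.756) and was not called, and its sign changed with a correction for GC content and transcript length and without experiment 2.

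Of the 2 ferritin subunits, the light chain fell. Ftl1 had 63633, 71082 and 67219 normalized counts with TWEAK, against 70120, 87358 and 83651 with vehicle. TWEAK was lower within each experiment, and the groups overlapped only through the vehicle library of experiment 1. The fitted difference was -0.25 on the log2 scale (SE 0.06, limma adjusted p = 0.0456), a 1.19-fold lower level. This call sat close to the threshold: it was lost in 8 of 12 alternatives, with an adjusted p of 0.0732 without experiment 1 and 0.239 without experiment 3 (range 0.0147 to 0.575). Fth1, the heavy chain, which oxidises iron as it enters the shell, had 22348, 25060 and 24567 normalized counts with TWEAK, against 22791, 31064 and 26934 with vehicle. It was lower in each experiment, its groups overlapped, and its log2 fold change of -0.16 (SE 0.07) did not pass (limma adjusted p = 0.219). That value was -0.08 without experiment 2 and -0.09 under cyclic loess. Ferritin genes have many near-identical processed pseudogenes, and the labels do not say how reads shared with them were counted.

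Slc40a1 encodes ferroportin, the exporter of iron from cells. It had 1010, 199 and 155 normalized counts with TWEAK, against 1110, 262 and 438 with vehicle. Both libraries of experiment 1 stood far above the others, so the groups overlapped, and within the experiments the log2 differences were -0.14, -0.40 and -1.49. Its log2 fold change of -0.67 (SE 0.27) was not called (limma adjusted p = 0.175). It rested on experiment 3: without that experiment it was -0.27 (adjusted p = 0.500; range over 12 alternatives 0.0392 to 0.999).

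The NRAMP carriers, which move divalent iron and manganese with protons, split by direction. Slc11a2, known as DMT1, which carries iron out of endosomes and into cells, had 4947, 7158 and 6081 normalized counts with TWEAK, against 3415, 5172 and 3401 with vehicle. Each TWEAK library was above the vehicle library of its experiment, and the groups overlapped only because the vehicle library of experiment 2 exceeded the TWEAK library of experiment 1. The fitted difference was 0.61 on the log2 scale (SE 0.10, limma adjusted p = 0.0156), a 1.53-fold higher level. Without experiment 1 the adjusted p was 0.0841 and without experiment 3 it was 0.0953 (range over 12 alternatives 1.57e-06 to 0.449). Slc11a1, known as NRAMP1 and best known from the phagosomes of macrophages, had 2077, 1247 and 916 normalized counts with TWEAK, against 2782, 1470 and 1450 with vehicle. It was lower in each experiment and highest in experiment 1 in both groups, with overlapping groups. The fitted difference was -0.44 on the log2 scale (SE 0.10, limma adjusted p = 0.0494), and the call was lost in 7 of 12 alternatives, with an adjusted p of 0.187 without experiment 1 and 0.285 without experiment 3 (range 4.03e-05 to 0.920).

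Macrophage transcripts varied with the experiment in the same libraries. The sum over 15 macrophage markers of the 16 listed was 64734, 10340 and 3924 normalized counts with TWEAK, against 67127, 10098 and 3676 with vehicle. This sum was highest in experiment 1, as were Slc11a1 and Slc40a1. Cd14 was the exception among the markers and was highest in experiment 2 in both groups. From experiment 2 to experiment 3 the sum, Slc11a1 and Slc40a1 all fell with TWEAK. With vehicle the sum fell from 10098 to 3676, while Slc11a1 stayed close (1470 and 1450) and Slc40a1 rose from 262 to 438. None of the 15 macrophage markers was called (0.0253 mean log2 difference of the sum, exact permutation p = 0.9, adjusted p = 0.9), and Lyz2, the lysozyme gene and the most abundant of them, averaged 14482 normalized counts with TWEAK and 14555 with vehicle, while the receptor gene Csf1r averaged 1694 with TWEAK and 1844 with vehicle. Every listed gene had at least 1 read in every library, so the lack of zeros among the markers carries no information. Fcgr1 had 2 reads in each library of experiment 3. The part of macrophages in the values of Slc11a1 and Slc40a1 was not tested, and in bulk RNA fewer cells of a type cannot be told apart from less RNA per cell.

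**Figure D3:**
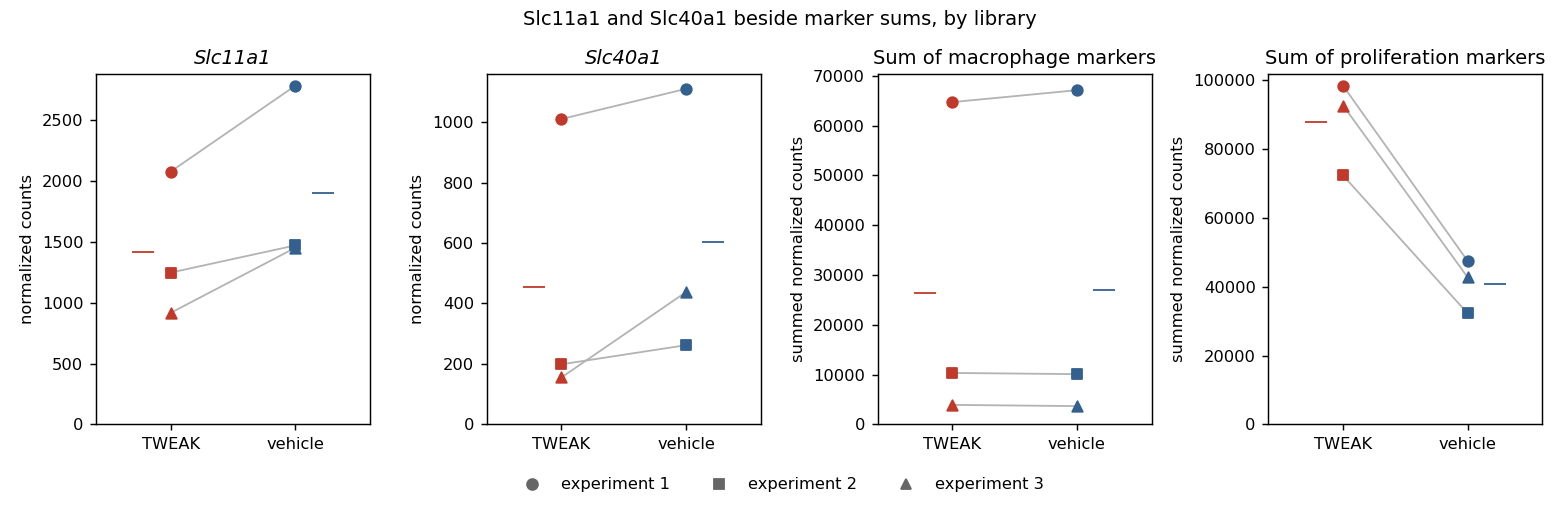
Normalized counts of Slc11a1 and Slc40a1 beside the summed macrophage and proliferation markers, TWEAK left and vehicle right, joined within experiments 1 to 3; short lines are group means. Slc11a1, Slc40a1 and the macrophage sum are highest in experiment 1 of both groups, and the proliferation sum is 72261 to 98296 with TWEAK against 32212 to 47405 with vehicle.

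The magnesium carriers gave 1 called gene. Slc41a3, known from human cells as a sodium-dependent carrier that moves magnesium out of mitochondria, had 2119, 1800 and 1679 normalized counts with TWEAK, against 3006, 2744 and 2268 with vehicle. All TWEAK libraries were below all vehicle libraries. The fitted difference was -0.52 on the log2 scale (SE 0.07, limma adjusted p = 0.0121), a 1.43-fold lower level, and the call was lost without experiment 1 (adjusted p = 0.0796) and without experiment 3 (0.0751; range over 12 alternatives 7.36e-05 to 0.340). Slc41a1, which exchanges magnesium for sodium at the plasma membrane, averaged 5400 ± 945 normalized counts with TWEAK and 5390 ± 710 with vehicle (SD, n = 3 each). Slc41a2 averaged 5976 ± 146 with TWEAK and 5840 ± 618 with vehicle, and neither Slc41a1 nor Slc41a2 was called (limma adjusted p = 0.979 for Slc41a1 and 0.769 for Slc41a2). Groups that did not overlap were found for Slc41a3, Slc39a7 and Slc39a13 alone, 8.57% of the members against 16% of all genes.

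No copper carrier was called. Slc31a2, a low-affinity copper carrier of endosomes and lysosomes, had 2206, 2227 and 1665 normalized counts with TWEAK, against 2706, 2933 and 1927 with vehicle. It was lower in each experiment, and its log2 fold change of -0.30 (SE 0.08) lay just outside the threshold (limma adjusted p = 0.0569, 0.0222 without experiment 2; range over 12 alternatives 0.0222 to 0.845). Atp7a, the copper pump that loads secreted copper enzymes, had a log2 fold change of 0.33 (SE 0.12, adjusted p = 0.141), with 0.05, 0.63 and 0.32 in experiments 1, 2 and 3 and 0.19 without experiment 2. Slc31a1, the main copper importer of mammalian cells, had one of 0.11 (SE 0.10, adjusted p = 0.522), and this value turned slightly negative with the correction for GC content and length and without experiment 2.

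None of the 12 zinc importers of the Slc39 family was called, and the 4 of 12 with an unadjusted limma p under 0.05 were close to the share of all genes at that threshold in the same blocked fit, 30.3%. Slc39a14, or ZIP14, which also carries iron that is not bound to transferrin, had 6841, 8012 and 9646 normalized counts with TWEAK, against 8739, 9463 and 8703 with vehicle. It was lower with TWEAK in experiments 1 and 2 and higher in experiment 3 (log2 fold change -0.15, SE 0.11, limma adjusted p = 0.421), and the fitted value moved to -0.05 without experiment 1 and -0.30 without experiment 3. Slc39a8, or ZIP8, its close relative and a carrier of zinc and manganese, had 1124, 800 and 965 normalized counts with TWEAK, against 981, 575 and 802 with vehicle. It was higher in each experiment, with overlapping groups, and its log2 fold change of 0.31 (SE 0.10) did not pass (limma adjusted p = 0.0958). Slc39a10, an importer at the plasma membrane, had the highest log2 fold change of the family, 0.56 (SE 0.17, adjusted p = 0.0977). That value leaned on experiment 2, where the log2 difference was 1.05, against 0.18 in experiment 1 and 0.44 in experiment 3; without experiment 2 it was 0.31 and passed (adjusted p = 0.00335; range over 12 alternatives 0.00335 to 0.816).

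At the other end of the importers stood Slc39a13, or ZIP13, an intracellular zinc carrier needed in connective tissue. It had 9678, 9254 and 8002 normalized counts with TWEAK, against 10551, 12803 and 9872 with vehicle, with a log2 fold change of -0.30 (SE 0.09, adjusted p = 0.0808), which was -0.21 and passed without experiment 2 (0.0209; range over 12 alternatives 0.0209 to 0.628). The groups did not overlap. Slc39a7, or ZIP7, which releases zinc from the endoplasmic reticulum, also had groups that did not overlap, at 19273 to 21725 normalized counts with TWEAK and 21775 to 25300 with vehicle (log2 fold change -0.15, SE 0.06, adjusted p = 0.171). The other importers had log2 fold changes between -0.19 for Slc39a3 and 0.13 for Slc39a11.

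None of the 6 zinc exporters of the Slc30 family was called either. Slc30a1, the exporter at the plasma membrane and a known target of MTF1, had 1516, 1532 and 1662 normalized counts with TWEAK, against 1797, 1486 and 1858 with vehicle. The TWEAK library was lower in experiments 1 and 3 and slightly higher in experiment 2 (log2 fold change -0.12, SE 0.09, limma adjusted p = 0.401), and the fitted value moved to -0.06 without experiment 1 and -0.20 without experiment 2. Slc30a5, Slc30a6 and Slc30a7, which load zinc into the secretory pathway, had log2 fold changes of -0.10, -0.17 and 0.12, and Slc30a4 of endosomes and Slc30a9 had 0.11 and -0.05. Without experiment 2, Slc30a5 was -0.19 (adjusted p = 0.0361; range over 12 alternatives 0.0361 to 0.999) and Slc30a9 was -0.18 (0.0419; 0.0419 to 0.999), and both passed, while Slc30a7 was 0.02. For Slc30a4 and Slc30a9 the sign depended on which experiments were included.

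The members spanned a wide range of levels. Scaled per kilobase of merged exons in GENCODE M21, a length that overstates the message of genes with long alternative exons, Ftl1 averaged 50233 normalized counts per kilobase with TWEAK and 59982 with vehicle, ahead of Slc39a1 with 12197 and 13041 and Slc39a7 with 8004 and 8908. Fth1 followed with 6916 and 7763 over 3469 merged bases. Its unscaled counts were above those of Slc39a7 in both group means, so this order depends on the length used. Slc39a5, an importer of pancreas and gut, was lowest at 11.5 per kilobase with TWEAK and 10.6 with vehicle, and Slc40a1 was next at 50.5 with TWEAK and 67.0 with vehicle.

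More members differed among the experiments than between the treatments. An F test on the experiment terms of the limma fit passed for 20 of the 35 members (57.1%, against 48.6% of all genes). Slc39a4, or ZIP4, the zinc importer of the gut, spread most between experiments, with 197, 1260 and 751 normalized counts with TWEAK, against 170, 1763 and 695 with vehicle (limma adjusted p = 0.00172 for the experiments and 0.849 for TWEAK). It was lowest in experiment 1 and highest in experiment 2 in both groups. The sum over 12 endothelial markers, none of them called, followed the same order. It was 10023, 75792 and 44909 normalized counts with TWEAK, against 11652, 88825 and 51561 with vehicle. Not every marker kept that order: in both groups Vwf was highest in experiment 1, and Tek and Emcn were highest in experiment 3. The part of endothelial cells in the value of Slc39a4 was not tested. Pecam1, the most abundant of these markers, averaged 9065 with TWEAK and 10948 with vehicle, and Cdh5 averaged 8029 with TWEAK and 8719 with vehicle.

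GC content moved with experiment 2. Among the 2958 genes with the lowest GC content, the median log2 level relative to the other libraries of the group was -0.67 in the TWEAK library of experiment 2 and -1.16 in the vehicle library of experiment 2. For the 12 members under 45% GC the medians were -0.45 with TWEAK and -0.97 with vehicle, and 10 and 11 of the 12 were below the other libraries of their group. For the 23 members with more GC they were 0.12 with TWEAK and 0.21 with vehicle. Ireb2, with 39.0% GC, and Tfrc, with 39.8%, were among the members this touched. After a correction of each library for GC content and length, Tfrc stood at 0.43 (limma adjusted p = 0.00172) and Ireb2 at 0.28 (0.0481), both still called, as were Mt2, Slc11a2 and Slc41a3. Ftl1 at -0.13 (0.208) and Slc11a1 at -0.34 (0.0610) were no longer called. That correction called 11 members in all, the new ones being Mt1, Slc39a10, Slc40a1, Slc31a2, Slc39a13 and Slc30a5. Calls rose over all genes too, to 3554 of 14787, against 2039 of 14927 in the main fit.

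**Figure D4:**
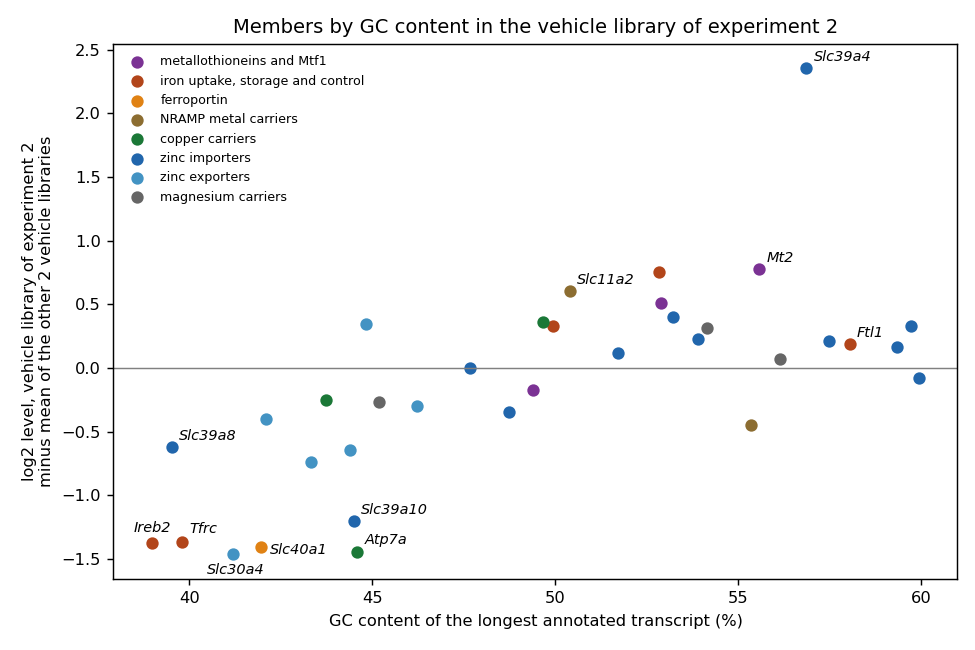
Log2 level of each member in the vehicle library of experiment 2 minus the mean of the other 2 vehicle libraries, against the GC content of its longest annotated transcript, coloured by role. Ireb2, Tfrc, Slc40a1, Slc30a4 and Atp7a lie between -1.46 and -1.37, and Slc39a4 lies highest at 2.35.

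Markers of the labelled cell type were abundant and shifted with treatment. The sum over 10 smooth muscle markers was 287436 to 437966 normalized counts with TWEAK, against 425513 to 553614 with vehicle. These ranges overlapped, and the sum did not pass (exact permutation p = 0.2, adjusted p = 0.467). Gene by gene, the limma fit called 9 of the 10 lower, against 5.55% of all genes, while Cald1 did not pass. Acta2, smooth muscle actin, averaged 124067 normalized counts with TWEAK and 179848 with vehicle, and Cald1, caldesmon, 112156 with TWEAK and 108197 with vehicle. All 8 proliferation markers were called higher, against 8.11% of all genes. Their sums were 72261 to 98296 with TWEAK and 32212 to 47405 with vehicle (exact permutation p = 0.1, the smallest possible, adjusted p = 0.35). Top2a averaged 24023 normalized counts with TWEAK and 9974 with vehicle, and Mki67 19773 with TWEAK and 8004 with vehicle. The transferrin receptor is known to be raised in dividing cells, and the part of proliferation in the value of Tfrc was not tested. Of 9 fibroblast markers Pdgfra rose, Pi16 and Col14a1 fell, and their summed level was 113248 to 150185 with TWEAK and 128230 to 158165 with vehicle. Col14a1 averaged 62659 with TWEAK and 81045 with vehicle, and Dcn 25367 with TWEAK and 23145 with vehicle.

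Other genes of metal handling also moved both ways. Of 68 measured genes on 3 further lists, 6 rose and 6 fell (17.6% called, against 13.7% of all genes). Of 40 other iron and haem genes 4 rose and 4 fell. Cp, the ferroxidase ceruloplasmin that works beside ferroportin, averaged 2194 ± 1714 normalized counts with TWEAK and 1280 ± 998 with vehicle (SD, n = 3 each; log2 fold change 0.69, SE 0.12, limma adjusted p = 0.0242). Steap1 and Pcbp2 rose too. Bmp6, the ligand that induces hepcidin in liver, averaged 892 ± 368 with TWEAK and 1707 ± 375 with vehicle (-0.98, SE 0.16, adjusted p = 0.0175), and its partner Neo1 also fell (-0.55, SE 0.10, adjusted p = 0.0273). Slc48a1, a haem carrier of endosomes and lysosomes, fell (-0.36, SE 0.07, adjusted p = 0.0276), as did Tfr2.

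Of 13 other copper genes 1 rose and 2 fell. Aoc3, a copper amine oxidase of smooth muscle, averaged 1531 ± 825 normalized counts with TWEAK and 3423 ± 1098 with vehicle, and its groups did not overlap (log2 fold change -1.24, SE 0.12, limma adjusted p = 0.00582). Lox, the lysyl oxidase that cross-links collagen and elastin, also fell (-0.49, SE 0.09, adjusted p = 0.0246), and Sod3, the extracellular superoxide dismutase, rose (0.31, SE 0.07, adjusted p = 0.0475). Of 15 other genes for zinc, magnesium and manganese only Zfp658, a zinc-finger gene whose human relative is a zinc-responsive repressor, was called, and it rose (0.57, SE 0.12, adjusted p = 0.0356). Without the block none of these lists held a called gene. Without experiment 1 the iron, copper and zinc lists held 2, 1 and 0 called genes, without experiment 2 they held 12, 4 and 3, and without experiment 3 they held 0, 1 and 0. Those fits called 695, 3902 and 666 genes in all, in that order.

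In the authors' deposited table, among the members, 8 had an adjusted p under 0.05, 5 higher and 3 lower, where 18.1% of all genes did. Of these 8, 6 were called in the limma fit as well: Mt2, Slc11a2, Tfrc, Ireb2, Slc41a3 and Slc11a1. The authors' deposited table also called Slc39a10, with a log2 fold change of 0.55 and an adjusted p of 0.00785. Slc40a1 had a log2 fold change of -0.65 and an adjusted p of 0.0454 in the authors' deposited table. Ftl1, called in the limma fit, was not called in the authors' deposited table, with a log2 fold change of -0.25 and an adjusted p of 0.0738.

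**Figure D5:**
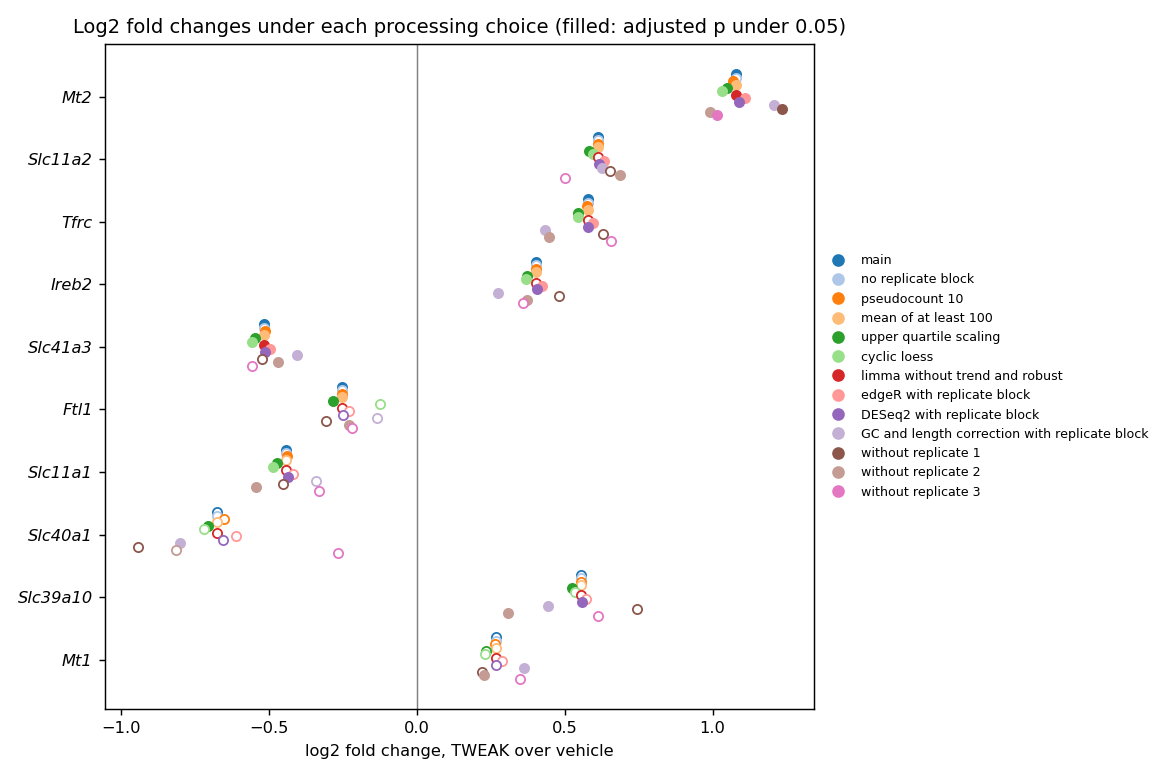
Log2 fold changes, TWEAK over vehicle, of the 7 called members and of Slc40a1, Slc39a10 and Mt1 under the reported fit and 12 alternatives; filled points have an adjusted p under 0.05. All values of a gene keep their side of 0, those of Mt2 between 0.99 and 1.23, while the Slc40a1 values spread from -0.94 to -0.27.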

How the data were processed

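Total RNA libraries were made with a stranded Illumina kit, per the labels. Per the file headers, 1 deposited table gives for each gene a mean and each library's normalized counts (a signal, reads over a size factor), with a log2 fold change, its standard error, a Wald score, p-value and adjusted p-value. DESeq2 is named, with no version, in the submitters' processing notes; the aligner, counter, use of strand, genome build and annotation were not stated in the labels or files. Columns were matched to samples by treatment and experiment number. All values (100%) were whole multiples of 1 read within 0.01, so reads were recovered; no libraries were duplicates (lowest chi-square per degree of freedom 90.7).

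The test was limma 3.58.1 (R 4.3.3) on log2(normalized count + 1) of the deposited values, with trend and robust estimation, the experiment as a block, all 14927 genes (mean of at least 1) and Benjamini-Hochberg adjustment at 0.05, two-sided. Whether the numbers pair the libraries was checked from deviations from group means, which correlated across genes at 0.879, 0.868 and 0.734 within experiments 1, 2 and 3 and at -0.760 to -0.126 between experiments; genes are not independent replicates. DESeq2 1.42.0 with the block on recovered reads called 2710 genes, 2667 of them among the 2702 of the authors' deposited table. Single values used exact permutation and sign-flip tests.

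The members and lists were chosen with earlier results of these data known. Values in every library are given for called members and for Mt1, Mt2, Mtf1, Slc39a14, Slc39a8, Slc11a1, Slc11a2, Slc40a1, Slc30a1, Fth1, Ftl1 and Tfrc, and up to 5 called genes per list with the smallest adjusted p are named; Slc31a2, Slc39a13, Slc39a4 and Slc39a7 were added after their values were seen, as were Steap1, Pcbp2 and Tfr2. A result that this rule named is not reported here. Alternatives were no block, a pseudocount of 10, a mean of at least 100, upper quartile and cyclic loess scaling, limma without trend and robust estimation, edgeR 4.0.16 and DESeq2 on recovered reads, each experiment left out and, added after seeing the data, a GC and length correction with GENCODE M21 (99.1% of genes matched) and DESeq2 without the block. Promoters were found for 30 of the 35 members in RefSeq, GRCm38.p6.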

Additional observations from a re-analysis of the deposited data

How the results depend on the processing

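No called member reversed under any of 12 alternatives. The replicate block decided the counts: with no replicate block limma called 0 of 35 members and 3 genes (DESeq2 without it 752 genes), and 0 genes of each of the iron, copper and zinc lists, where the blocked fit called 7 members, 2039 genes and 8, 3 and 1 list genes. The cause of the other changes was not tested. Limma without trend and robust estimation called 2 members, 1225 genes and 0 iron, 1 copper and 0 zinc list genes. Upper quartile scaling called 11 members (5 higher, 6 lower) and 2983 genes (1591 higher, 1392 lower). The GC and length correction called 11 members (6 higher, 5 lower), 3554 genes (2093 higher, 1461 lower) and 2 zinc list genes. Leaving out 1 experiment gave 1 to 13 members, 666 to 3902 genes, and, for the lists that moved, 0 to 12 iron, 1 to 4 copper and 0 to 3 zinc list genes; it leaves 2 libraries per group, and omission of experiment 2 gave the highest counts. Members that were not called changed sign as follows. Under upper quartile scaling and cyclic loess Mtf1 was -0.0136 and -0.0229. Under edgeR Slc39a9 was 0.011 and Slc41a1 0.0177. Under the GC and length correction Slc30a4 was -0.0336, Slc31a1 was -0.0037, Slc39a4 was 0.0583, Slc41a1 was 0.0658, Slc41a2 was -0.0639 and Steap3 was 0.000877. With 1 experiment left out the log2 fold changes spanned -0.0439 to 0.202 for Slc30a4, -0.184 to 0.0211 for Slc30a9, -0.0174 to 0.208 for Slc31a1, -0.186 to 0.163 for Slc39a4, -0.0307 to 0.252 for Slc39a5, -0.0332 to 0.0271 for Slc39a9, -0.0368 to 0.0189 for Slc41a1, -0.0357 to 0.0793 for Slc41a2 and -0.119 to 0.0544 for Steap3. The macrophage marker sum was -0.0053 under upper quartile scaling. Depth did not limit the common members, but Slc39a5 averaged 25.6 normalized counts with TWEAK and 23.6 with vehicle.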
